A study of Mus musculus with 6 samples.

Results

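A set of 10 transcripts of the leukocytes that live inside stratified epithelium was followed through 6 libraries of mouse tongue epithelium. They were chosen by gene symbol as markers of Langerhans cells (Cd207, Epcam), MHC class II presentation (H2-Aa, H2-Ab1, H2-Eb1, Cd74), T cells (Trbc2, Cd3e, Cd3g) and leukocytes in general (Ptprc), and all 10 were found among the 55421 genes of the table. Each library came from 1 mouse. Both alleles of Ire1α (Ern1), an endoplasmic reticulum stress sensor, were flanked by loxP sites in all 6 mice. The 3 control mice (labelled IRE1F/F, here WT) had no Cre, and 3 littermates (labelled K14CreERT2 IRE1 F/F, here KO) also carried a tamoxifen-activated Cre driven by the promoter of keratin 14, a keratin of basal keratinocytes. Tamoxifen was injected on 4 days in both groups and tissue was taken on day 5. No group with Cre and unfloxed alleles is among these samples, so Cre activity and Ire1α loss cannot be told apart. The age, sex and strain of the mice were not given in the sources used here. Class II chains vary between mouse strains, and the part of strain in their values was not tested. The tongue surface was peeled after 10 minutes in neutral protease and collagenase at 37 °C, so any leukocyte within the peel entered the library.

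Langerhans cells are the dendritic cells of stratified epithelium. They sit between keratinocytes, carry the lectin langerin (Cd207) and the adhesion protein EpCAM, and present peptides on MHC class II, a pair of an α and a β chain that is guided through the cell by the invariant chain CD74. T cells recognise such complexes through a receptor whose α and β chains (or γ and δ chains) reach the surface only together with the CD3 subunits, so that receptor and CD3 mRNAs are normally made by the same cell. CD45, encoded by Ptprc, is the tyrosine phosphatase of all nucleated blood-derived cells.

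In KO tongue epithelium Trbc2, the second constant segment of the T cell receptor β chain, rose 4.23-fold by the ratio of means. The transcripts of the CD3 subunits Cd3d, Cd3e and Cd3g stayed at a few reads per library. The class II chains, CD74, Epcam and Ptprc did not pass the test, and their libraries overlapped between the groups. Of the 10 genes, 7 had a normalised read count of at least 10 in at least 3 libraries and were tested (limma, Benjamini-Hochberg adjustment over all 10987 tested genes). Of those 7, 1 was higher in KO, 0 were lower and 6 did not pass, beside 1.8% of all tested genes called in either direction, 1.22% higher and 0.583% lower. With edgeR and with DESeq2 on recovered reads it was also 1 of the 7, Trbc2 in both, beside 1.73% and 3.35% of all tested genes. In 1 of the 7 genes the groups did not overlap, with KO higher, beside 19.1% of all tested genes (9.84% with KO higher and 9.25% with KO lower). Cd207, Cd3e and Cd3g were too low to test. In whole tissue a change in the number of cells of a type, in RNA per cell and in which cells make an RNA cannot be told apart. All levels are normalised read counts with the SD over n = 3 mice per group, and with a kit that makes 1 tag per mRNA they are not divided by gene length. Libraries held 4606309 to 6286153 reads. Where no read was counted, counting error alone leaves room for 3 reads (a normalised 2.59 to 3.92, by library).

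**Figure D1:**
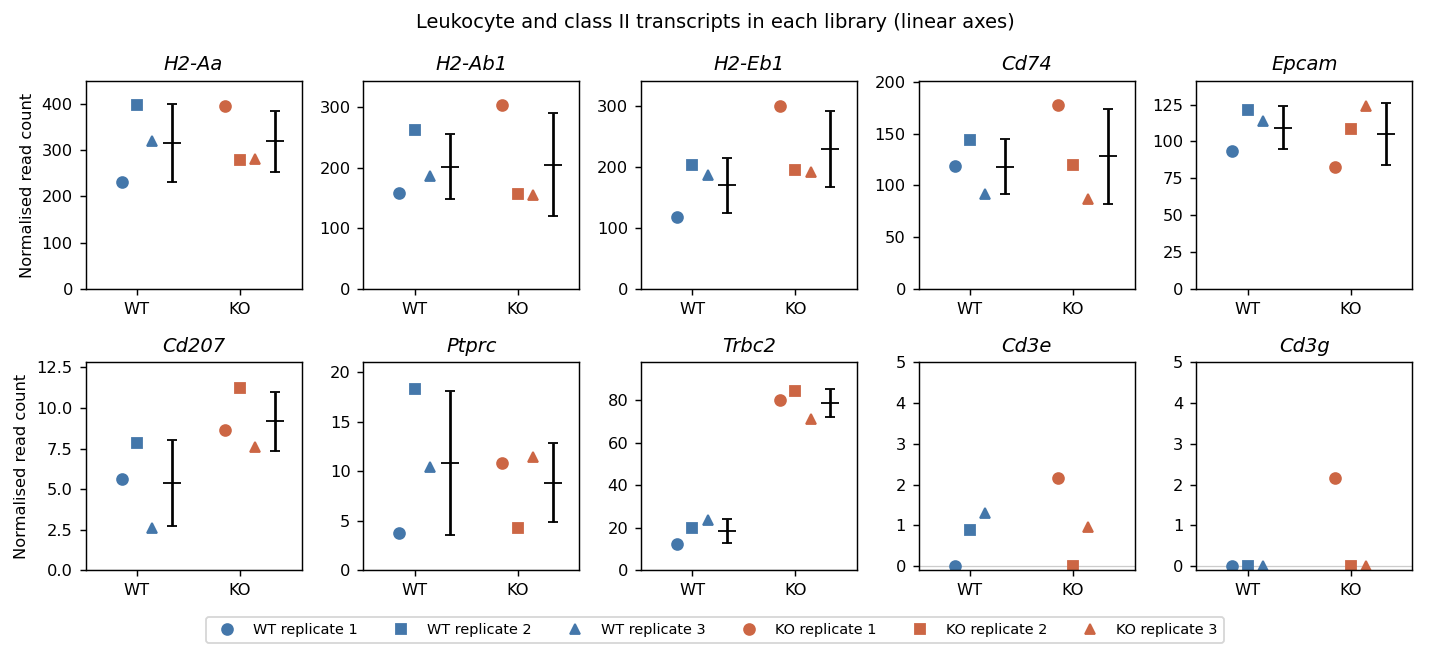
Normalised read count (y axis, linear) of each of the 10 genes in the 3 WT and 3 KO libraries, with the mean and SD of each group beside the points except for Cd3e and Cd3g. Trbc2 lies between 12.3 and 23.5 in WT and between 71.5 and 84.5 in KO, and in the other 9 genes the points of the groups overlap.

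Keratinocyte markers were high in every library, as the label of the tissue has it. These genes (9 listed, such as Krt13 and Krt4 of the differentiated lining and Krt5 and Krt14 of the basal layer) summed to between 511296 and 894155 per library. The other leukocyte transcripts were far lower: 21 genes common to leukocytes, Ptprc left out, summed to 180 to 297 in WT and 166 to 242 in KO. KO replicate 1 stood apart. Skeletal muscle markers summed to 1692 there and to between 69.8 and 312 in the other 5 libraries, and the 4 mast cell proteases Cpa3, Mcpt4, Cma1 and Tpsb2 had 50 reads there and 0 or 1 in each of the others. The collagen genes Col1a1 and Col1a2 had 175 and 217 reads there and at most 15 and 23 in any other library. Ern1 gave 94.5 ± 15.2 in WT mice and 106 ± 24.5 in KO mice. Which exons were removed is not stated in the labels, and 3' tags outside them check nothing about the genotype.

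The class II chain genes lie together on chromosome 17 (GRCm38, GENCODE M21): H2-Ab1 at 34257689 to 34269419 on the plus strand, H2-Aa at 34282744 to 34287823 on the minus strand and H2-Eb1 at 34305867 to 34316674 on the plus strand. Genes of this kind are known to be switched on together by CIITA through shared promoter boxes, the X box bound by RFX and the Y box bound by NF-Y. The promoters of H2-Aa and H2-Eb1 are shown because both carry the same pair of short sequences in the same order. The windows are from RefSeq (GRCm38.p6), 250 bases before to 50 after the gene start, read 5′ to 3′ on the gene's strand. H2-Aa is chr17:34287774-34288073 on the minus strand and H2-Eb1 is chr17:34305617-34305916 on the plus strand. Capitals mark GCAAC, found in X boxes, and CTGATTGG, a Y box that holds the inverted CCAAT of NF-Y.
H2-Aa: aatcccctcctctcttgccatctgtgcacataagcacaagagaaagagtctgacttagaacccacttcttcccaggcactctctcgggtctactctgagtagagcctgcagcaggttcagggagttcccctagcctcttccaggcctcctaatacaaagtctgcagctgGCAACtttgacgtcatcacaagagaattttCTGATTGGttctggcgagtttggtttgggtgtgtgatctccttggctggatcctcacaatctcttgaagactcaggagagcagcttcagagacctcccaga
H2-Eb1: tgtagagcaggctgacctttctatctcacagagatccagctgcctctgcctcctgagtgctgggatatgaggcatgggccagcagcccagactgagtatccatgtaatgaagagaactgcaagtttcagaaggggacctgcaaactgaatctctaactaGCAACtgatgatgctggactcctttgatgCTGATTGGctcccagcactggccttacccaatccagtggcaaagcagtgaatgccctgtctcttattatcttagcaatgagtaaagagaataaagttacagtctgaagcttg
The capitals are 25 bases apart in H2-Aa and 24 in H2-Eb1. On either strand, GCAAC occurred in 35.2% of the 32817 promoter windows of the table, CTGATTGG in 4.09%, and GCAAC followed by CTGATTGG within 40 bases in 0.165%. Of the 16 genes listed for class II processing and presentation, 13 had a window, and 4 of these held the pair, namely H2-Aa, H2-Eb1, H2-Eb2 and H2-Oa. These motifs were chosen after the sequences were seen, and a match is a description of letters, not of a bound site. H2-Ab1 and Cd74 had no window in the table.

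H2-Aa, the α chain of I-A, gave 230, 398 and 319 in the WT mice and 395, 278 and 281 in the KO mice, each in the order of replicates 1 to 3. The groups overlapped fully, with the highest value in WT replicate 2 and the next in KO replicate 1. The means were 316 ± 84.0 and 318 ± 66.8, a log2 fold change of 0.03 ± 0.23 (SE, limma adjusted p = 0.974). The 95% interval of that difference ran from 0.713-fold to 1.46-fold.

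H2-Ab1, the β chain that pairs with H2-Aa, gave 157, 262 and 185 in the WT mice and 302, 157 and 154 in the KO mice. Here too WT replicate 2 and KO replicate 1 were the high libraries and KO replicates 2 and 3 lay at the level of WT replicate 1. Its log2 fold change was -0.02 ± 0.29 (SE, limma adjusted p = 0.987), with an interval from 0.635-fold to 1.53-fold. H2-Eb1, the β chain of I-E, gave 118, 203 and 187 in the WT mice and 300.1, 195 and 191 in the KO mice. KO replicate 1 was again high and WT replicate 1 low, and KO replicates 2 and 3 fell between the WT values. Its log2 fold change of 0.44 ± 0.26 (SE) did not pass (limma adjusted p = 0.518), with an interval from 0.913-fold to 2.01-fold.

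Cd74, the invariant chain that fills the class II groove until peptide is loaded, gave 119, 144 and 91.4 in the WT mice and 178, 120 and 86.7 in the KO mice. It was highest in KO replicate 1 and lowest in KO replicate 3, so the KO libraries spanned the WT range on both sides. Its log2 fold change was 0.08 ± 0.28 (SE, limma adjusted p = 0.939), with an interval from 0.690-fold to 1.62-fold. For these 4 genes together, the mean of log2(value + 1) centred on the 6 libraries was -0.36, 0.28 and -0.12 for the WT libraries and 0.55, -0.11 and -0.24 for the KO libraries. The library with the highest class II level, KO replicate 1, was thus the one with the high muscle, mast cell and collagen transcripts, and the part of these in the class II values was not tested.

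**Figure D2:**
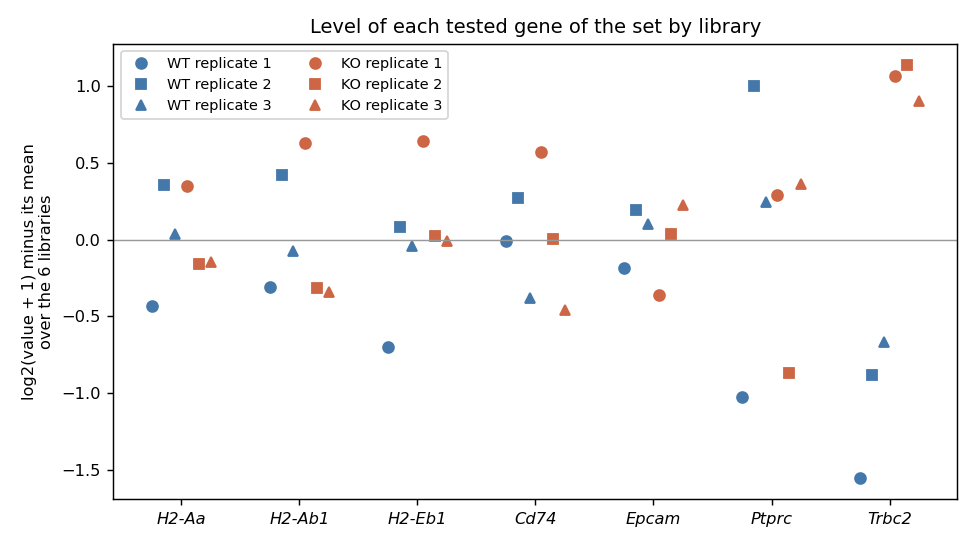
Level of each of the 7 tested genes in each library as log2(value + 1) minus the gene's mean over the 6 libraries (y axis), by gene (x axis). KO replicate 1 is the highest library for H2-Ab1, H2-Eb1 and Cd74 and WT replicate 2 for H2-Aa and Ptprc, while Trbc2 divides the libraries by genotype.

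By likeness over the 6 libraries, measured as the root mean square difference from that centred profile, the nearest other genes were Smco4 (0.08 log2 units), Mmp14, a membrane-anchored matrix protease (0.09), Lrrc42 (0.10), Trub1 (0.10) and Scarb2, a lysosomal membrane protein (0.11). None of these 5 passed the test between genotypes.

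The other class II genes followed no single direction. Of 12 further genes listed for processing and presentation, 7 were tested and 0 passed. Of the 7, 2 had an unadjusted p under 0.05, beside 1485 of all 10987 tested genes. Their median log2 fold change was -0.09 beside -0.01 over all tested genes. H2-DMb1, the β chain of the peptide exchange factor DM, gave 7.54, 19.2 and 6.53 in the WT mice and 29.3, 23.3 and 20.97 in the KO mice. All 3 KO libraries lay above all 3 WT libraries, but the log2 fold change of 1.21 ± 0.44 (SE) did not pass (limma adjusted p = 0.233). H2-DMa, its partner, had a log2 fold change of -0.09. Marchf8, a ubiquitin ligase of the family that removes class II from the surface, was 583 ± 130 in WT mice and 369 ± 34.0 in KO mice and did not pass (log2 fold change -0.64, limma adjusted p = 0.166). Ctss, the protease cathepsin S that trims CD74, was 52.3 ± 1.103 in WT mice and 39.4 ± 16.5 in KO mice (limma adjusted p = 0.549). Ciita itself had 0 to 12 reads per library and was not tested.

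Among 10 genes listed for class II transcription 8 were tested and 0 passed. Of the 8, 3 had an unadjusted p under 0.05, beside 1485 of all 10987 tested genes. Nfyb, a subunit of NF-Y, was 105 ± 20.2 in WT mice and 174 ± 30.4 in KO mice (log2 fold change 0.73, limma adjusted p = 0.141). Irf1, an interferon-induced factor that acts on Ciita, gave 20.7, 74.2 and 27.4 in the WT mice and 11.9, 13.8 and 8.58 in the KO mice. Every KO value lay below every WT value, with WT replicate 2 far above the others, and the log2 fold change of -1.56 ± 0.46 (SE) did not pass (limma adjusted p = 0.141), though Irf1 is listed as called in the authors' deposited table (log2 fold change -1.84, adjusted p = 0.0360). WT replicate 2 was the highest library for both Irf1 and H2-Aa. H2-Ab1, H2-Eb1 and Cd74 were instead highest in KO replicate 1, where Irf1 was 11.9. The part of Irf1 in the class II values was not tested.

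Cd207, which encodes langerin, was found at 5.65, 7.85 and 2.61 in the WT mice and 8.67, 11.2 and 7.62 in the KO mice. These values rest on 2 to 13 reads per library, and the ranges overlap, since WT replicate 2 lay above KO replicate 3. Without the filter on low values its log2 fold change was 0.75 (limma adjusted p = 0.754), so no difference was detectable at this depth.

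Epcam, the adhesion protein shared by Langerhans cells and simple epithelia, gave 93.3, 121 and 114 in the WT mice and 82.3, 109 and 124 in the KO mice. KO held both the lowest and the highest library. Its log2 fold change was -0.07 ± 0.22 (SE, limma adjusted p = 0.930), with an interval from 0.681-fold to 1.33-fold. KO replicate 1, highest for the class II genes, was lowest for Epcam. Of the simple epithelial keratins that go with Epcam in taste buds and glands, Krt8 had at most 1 read and Krt18 at most 3 in a library, while Krt19 had 4 to 21 and Krt7 20 to 99. The part of such cells in the Epcam values was not tested.

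The list of other Langerhans and dendritic cell genes held 26, of which 10 were tested, 1 rose and 9 did not pass, with a median log2 fold change of 0.06. Over all tested genes 1.8% were called in either direction and 1.22% were called higher. Of the 10, 3 had an unadjusted p under 0.05, beside 1485 of all 10987 tested genes. The gene that rose was Cd80, the B7-1 ligand that stimulates T cells through CD28 and restrains them through CTLA-4. Cd80 gave 3.77, 6.98 and 6.53 in the WT mice and 22.8, 41.4 and 27.6 in the KO mice, on 4 to 48 reads per library, and the groups lay well apart. Its log2 fold change was 2.22 ± 0.41 (SE, limma adjusted p = 0.0226), and the authors' deposited table gives 2.42 with an adjusted p = 0.00415. Cd80 passed in 1 of the 6 fits that leave out 1 library, the one without WT replicate 3 (highest limma adjusted p = 0.0926, without KO replicate 3), and not with the library name style (number or letter) in the fit (0.0740). Cd86 and Cd83, of the same list but below the filter, had 18 and 10 reads over the WT libraries and 14 and 8 over the KO libraries. Which cells made the Cd80 reads was not tested. Csf1r, the receptor for the Langerhans cell factor IL-34, was 40.8 ± 5.203 in WT mice and 71.3 ± 18.6 in KO mice with no overlap, and did not pass (log2 fold change 0.77, limma adjusted p = 0.196). Mfge8, a bridging protein for dying cells, was 602 ± 237 and 968 ± 304 (limma adjusted p = 0.367). Itgax, Ly75 and Clec10a, dendritic cell receptors below the filter, had 19, 16 and 10 reads in KO replicate 1 and at most 7, 11 and 1 in any other library. Other genes of this list below the filter went the other way. Cd1d1, Ccr6 and Cd40 had 17, 11 and 7 reads over the WT libraries and 3, 3 and 0 over the KO libraries. Itgam and Irf8 had 0 reads in all 6 libraries.

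**Figure D3:**
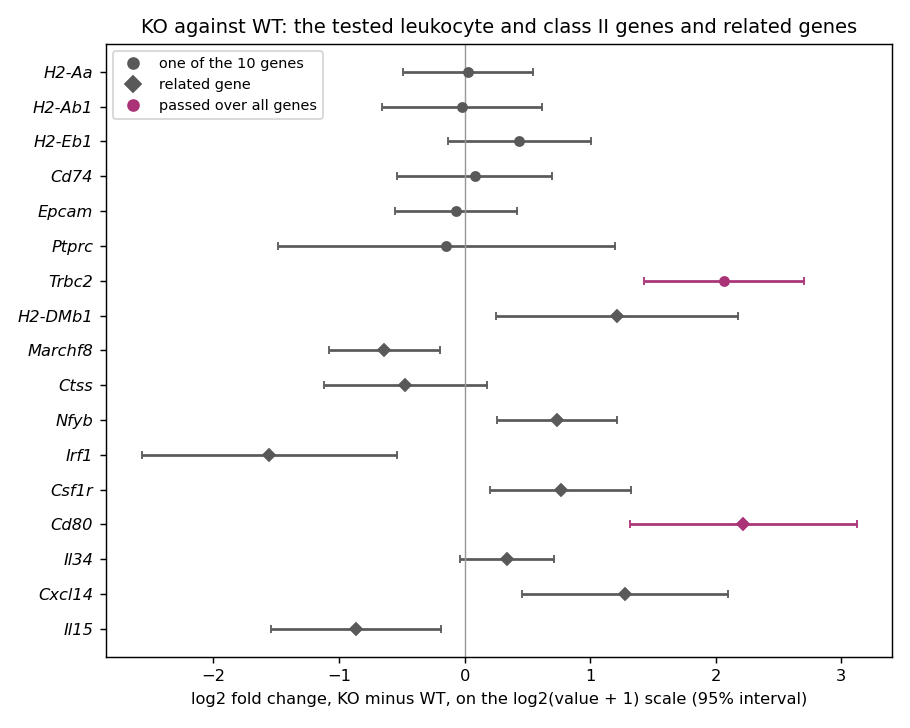
log2 fold change of KO against WT with its 95% interval, not adjusted for multiple testing (x axis), for the 7 tested genes of the set (circles) and 10 related genes of the fixed lists (diamonds). Trbc2 at 2.07 and Cd80 at 2.22 passed the test over all genes, and the intervals of the class II chains and Cd74 span 0.

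Ptprc gave 3.77, 18.3 and 10.4 in the WT mice and 10.8, 4.31 and 11.4 in the KO mice, on 4 to 21 reads per library. The lowest and the highest library were both WT. Its log2 fold change was -0.14 ± 0.61 (SE, limma adjusted p = 0.948), with an interval from 0.356-fold to 2.30-fold that is too wide to set a level. Of 21 other genes common to leukocytes, 9 were tested and 0 passed (0 at an unadjusted p under 0.05). Among them were Fyb, an adaptor of lymphocyte and myeloid signalling (20.2 ± 8.18 and 13.2 ± 3.32), and Cd52, a small surface glycoprotein (22.2 ± 10.8 and 15.5 ± 4.03).

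Trbc2 (ENSMUSG00000076498, chromosome 6, 41546730 to 41548352, plus strand, by GENCODE M21 on GRCm38) gave 12.3, 20.1 and 23.5 in the WT mice and 80.2, 84.5 and 71.5 in the KO mice. The KO libraries lay close together, all far above the highest WT library. These values stand for 54 reads over the 3 WT libraries and 247 over the 3 KO libraries. The mean rose from 18.6 ± 5.77 to 78.7 ± 6.62, a log2 fold change of 2.07 ± 0.29 (SE, limma adjusted p = 0.00601, higher in 3 of 3 KO libraries). In the authors' deposited table Trbc2 is the 1 gene of the 10 that is listed, at a log2 fold change of 2.10 (adjusted p = 1.06e-05). It passed whichever 1 library was left out (limma adjusted p from 0.00698 to 0.0320). With WT replicate 2 and KO replicate 1 both left out, an alternative chosen after the data were seen in which 5 genes in all passed, the log2 fold change was 2.13 (limma adjusted p = 0.113). Among libraries named by a number, KO replicate 1 (80.2) stood against WT replicates 1 and 2 (12.3 and 20.1), and among those named by a letter KO replicates 2 and 3 (84.5 and 71.5) against WT replicate 3 (23.5). The meaning of the name style is not given, and with it as a covariate the adjusted p was 0.0324.

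The β chain locus has another constant segment, Trbc1, which ends 6848 bases before Trbc2 starts, and a T cell uses one or the other. The 2 are shown because reads of near-identical copies can be counted for the wrong gene. The last 90 coding bases of each, stop codon included, come from GENCODE M21 transcripts, and capitals mark the 14 bases that differ.
Trbc1: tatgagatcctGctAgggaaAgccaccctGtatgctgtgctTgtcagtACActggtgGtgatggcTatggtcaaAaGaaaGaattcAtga
Trbc2: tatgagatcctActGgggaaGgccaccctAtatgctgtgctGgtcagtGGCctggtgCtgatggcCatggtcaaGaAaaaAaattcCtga
Over the 521 coding bases 498 were identical (95.6%), and 422 of the 431 before the stretch shown. The untranslated ends behind the stop codon of the 2 transcripts compared shared 0 windows of 20 bases. This kit places its tags near the 3' end, but where the reads counted for Trbc2 lie was not tested. Trbc1 had 2 reads in WT replicate 2 and 0 in the other 5 libraries.

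Of the transcripts that T cells make together with the β chain, Cd3d, Cd3e and Cd3g stayed at a few reads in both groups. Cd247, the CD3ζ chain, had 5 to 22 reads per library. Cd3e, the CD3ε chain, had 0, 1 and 1 reads in the WT mice and 2, 0 and 1 in the KO mice. Cd3g, the CD3γ chain, had 2 reads in KO replicate 1 and 0 in every other library. With Cd3d, the CD3δ chain, the 3 subunits came to 3, 7 and 3 reads in the WT mice and 8, 1 and 2 in the KO mice. These are totals of 13 reads in WT and 11 in KO, against 54 and 247 reads of Trbc2. In KO replicate 2, the library with the highest Trbc2, there were 98 reads of Trbc2 and 1 of these CD3 subunits, whereas WT replicate 2 had 23 and 7. Which cells made the Trbc2 reads was not tested.

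**Figure D4:**
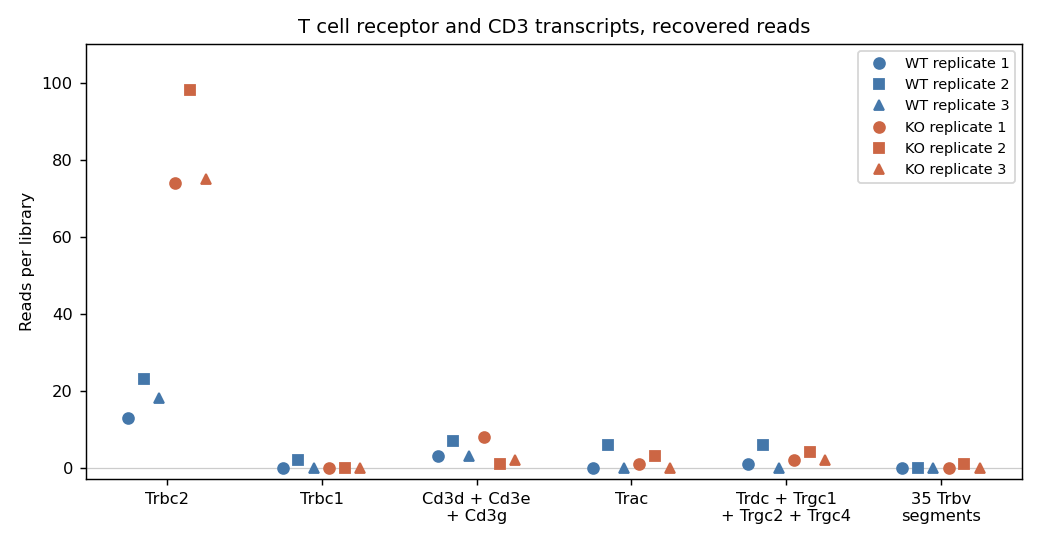
Recovered reads per library (y axis, linear) for Trbc2, Trbc1, the CD3 subunits Cd3d, Cd3e and Cd3g summed, Trac, the γ and δ constant segments summed, and 35 Trbv segments summed. Trbc2 reaches 74 to 98 reads in KO, and every other set stays at 8 reads or fewer in each library.

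Trac, the constant segment of the α chain, had 6 reads over the WT and 4 over the KO libraries, and the γ and δ constant segments Trgc1, Trgc2, Trgc4 and Trdc had 7 and 8. The 35 Trbv segments in the table held 1 read in all and the 16 Trbj and Trbd segments 0, though 3' tags seldom reach so far upstream. Of 33 further genes listed for T cells, 30 were in the table. Of these, 5 had 0 reads in all 6 libraries (Cd7, Cd27, Cxcr6, Trdc and Trgc2), and 9, these 5 included, had at most 3 reads in any library. Only 5 of the 30 were tested and 0 passed (0 at an unadjusted p under 0.05), with a median log2 fold change of -0.28. Among them, Bcl11b, a transcription factor of T cells and of skin keratinocytes, was 733 ± 65.2 in WT mice and 596 ± 103 in KO mice. Cd5, a brake on receptor signalling, was 93.3 ± 22.2 and 71.5 ± 8.13, and Ctla4, an inhibitory receptor for CD80, 79.4 ± 17.8 and 64.7 ± 10.0 (limma adjusted p = 0.511, 0.554 and 0.674). Over the WT and KO libraries Cd5 had 279 and 222 reads and Ctla4 238 and 205. Cd3d, Cd3e and Cd3g together had 13 and 11. Which cells made the Cd5 and Ctla4 reads was not tested. Of 14 genes of cytotoxic and NK cells 0 could be tested, and their sum was 7.84 to 27.9 in WT and 5.42 to 9.48 in KO.

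The genes whose levels over the 6 libraries were nearest to those of Trbc2 were Mgmt, which repairs alkylated guanine (root mean square difference 0.16 log2 units), Psrc1, a microtubule-associated protein (0.20), Wdr35, a component of the transport machinery of cilia (0.21), Bbc3, the pro-apoptotic protein Puma (0.22), and Sox9, an HMG box transcription factor (0.23). Mgmt, for instance, gave 69.7, 80.3 and 103 in the WT mice and 317, 347 and 315 in the KO mice. Likeness to a gene that divides the libraries by genotype selects other genes that do so, and no function is read from it.

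Keratinocytes supply the signals that hold these leukocytes in the epithelium. Of 19 genes listed for this, 9 were tested and 0 passed, with a median log2 fold change of 0.31. An unadjusted p under 0.05 was reached by 2 of the 9, beside 1485 of all 10987 tested genes. Il34, the keratinocyte cytokine on which Langerhans cells depend, gave 275, 333 and 302 in the WT mice and 417, 382 and 350 in the KO mice. Its groups did not overlap, and the log2 fold change of 0.34 ± 0.17 (SE) did not pass (limma adjusted p = 0.429). Cxcl14, a chemokine of resting epithelium, was 49.9, 170 and 136 in the WT mice and 238, 270 and 260 in the KO mice (log2 fold change 1.28, limma adjusted p = 0.134). DESeq2 on recovered reads called Cxcl14 higher, but the authors' deposited table of called genes does not list it. No fit that leaves out libraries called it (lowest limma adjusted p = 0.112), and without WT replicate 1 its log2 fold change was 0.75. Il15, which sustains intraepithelial T cells, was 66.0, 50.6 and 40.5 in the WT mice and 23.8, 22.4 and 40.02 in the KO mice (log2 fold change -0.86, limma adjusted p = 0.228).

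**Figure D5:**
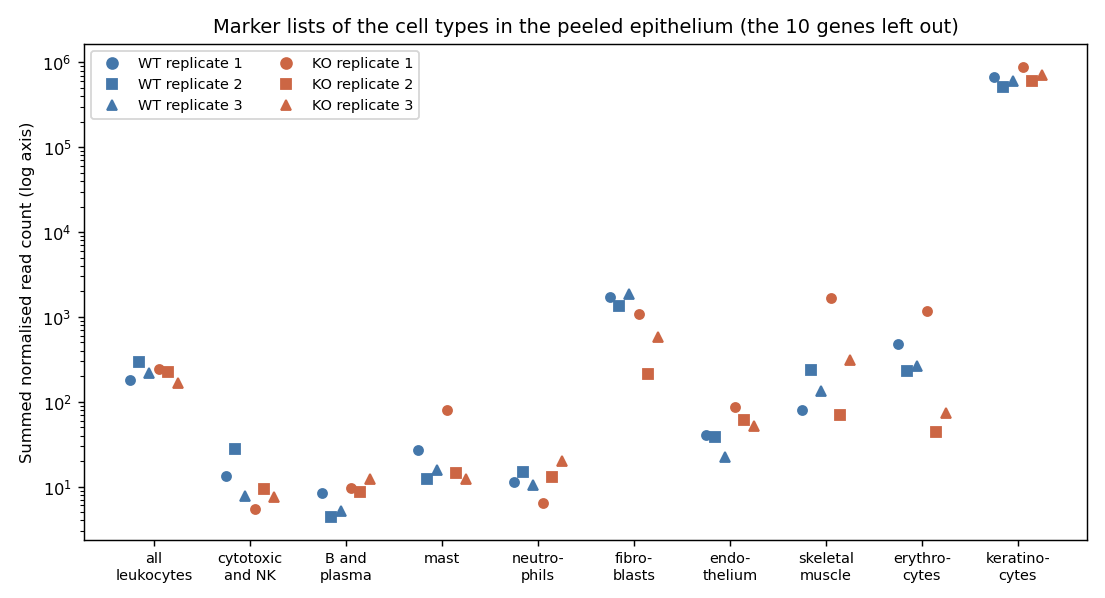
Summed normalised read count (y axis, log scale) of marker lists for leukocyte classes and for other cell types of the tongue, by library, with the 10 genes left out. KO replicate 1 is the highest library for mast cell, skeletal muscle and erythrocyte markers, while the genes common to all leukocytes lie between 166 and 297 in every library.

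Markers of other cells in the peel were counted in the same libraries. Of 9 B and plasma cell genes 5 were at 0 in every library and of 8 neutrophil genes 3 were. In the macrophage list 4 of 15 were tested and 0 passed, with Lyz2, lysozyme, at 4.71, 18.3 and 14.4 in the WT mice and 41.2, 17.2 and 8.58 in the KO mice. In the fibroblast list 3 of 7 were tested, with a median log2 fold change of 1.01 that comes from KO replicate 1. Col1a1 was 190 there and 3.45 and 14.3 in KO replicates 2 and 3, against 9.42 to 12.2 in WT mice. The third gene tested, Dcn, which encodes the proteoglycan decorin, fell from 1614 ± 266 in WT mice to 423 ± 198 (log2 fold change -2.06, limma adjusted p = 0.0152, and 0.0542 without WT replicate 2). Dcn gave 530, 195 and 544 in the KO mice, so it was not raised with the collagens in KO replicate 1. Over the WT libraries the listed Lum and Pdgfra had 0 and 2 reads. Which cells made the Dcn reads was not tested. In the list for taste buds and simple epithelium Krt7, a keratin of simple epithelia, rose from 27.5 ± 10.5 to 75.8 ± 11.6 (limma adjusted p = 0.0354). Krt7 passed in 1 of the 6 fits that leave out 1 library, without WT replicate 3 (highest limma adjusted p = 0.130). Of the keratinocyte list 9 genes were tested and of the erythrocyte and skeletal muscle lists 4 each. The neutrophil and endothelial lists had 1 tested gene each and the mast cell and B cell lists 0. Of the tested genes of these lists 0 passed, and 8 had an unadjusted p under 0.05, beside 1485 of all 10987 tested genes. Of those 8, 6 were among the 9 keratinocyte genes. In 4 of these 9 the groups did not overlap with KO higher and in 2 with KO lower, beside 9.84% and 9.25% of all tested genes. Krt14 (limma adjusted p = 0.0694), Cxcr2 (0.872), Pecam1 (0.283), Ckm (0.324) and Hbb-bs (0.686), the genes with the lowest p of the keratinocyte, neutrophil, endothelial, muscle and erythrocyte lists, did not pass. Krt14, a keratin of basal cells, was nevertheless 13978 ± 1108 in WT mice and 31082 ± 8822 in KO mice with no overlap, and passed with equal library totals (limma adjusted p = 0.0394) and quantile normalisation (0.0415). The authors' deposited table lists Krt14 (log2 fold change 1.15), Krt5 (1.05) and Krt6a (0.86) as higher and Krt15 (-1.10) as lower, and DESeq2 on recovered reads called the same 4 genes. The globin genes turned on KO replicate 1. Without it Hbb-bs (log2 fold change -2.29, limma adjusted p = 0.0281) and Hba-a1 (-2.69, 0.0235) were called lower in KO, whereas with all libraries they were -0.982 and -0.996 and with edgeR 0.09 and 0.83.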

How the data were processed

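RNA from peeled tongue epithelium of 6 mice was made into 3' mRNA libraries (QuantSeq), per the labels' protocols. The authors deposited a table of 55421 genes whose values are, per the file headers, normalised counts (a linear signal), and results for 341 called genes, namely log2 fold changes, a score (the Wald statistic), p-values and adjusted p-values. The submitters' processing notes list FastQC, STAR, featureCounts and DESeq2 and give no versions. The genome build, annotation and strand setting were not given in the sources used here. Library names in the labels tied each column to its mouse, and 0 value columns were unmatched.

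Every deposited value was a whole multiple of 1 step per library (100% within 0.01), so whole reads were recovered. Rows without a symbol (3192, 0.0768% to 0.119% of the values) were kept. Genes at 10 or more in at least 3 libraries (10987 of 21778 above 0) were transformed to log2(value + 1) and tested with limma 3.58.1 (intensity trend, two-sided, Benjamini-Hochberg at 0.05, R 4.3.3), after a test on simulated data. Fold changes on that scale understate low genes. edgeR 4.0.16 and DESeq2 1.42.0 were run on the recovered reads as alternatives (190 and 368 genes called). The libraries come from separate mice.

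The 10 genes and the 17 gene lists (233 symbols, 3 not in the table) were chosen with earlier results of these data known. Named genes are the 10, up to 3 tested genes with the lowest p of each closely related list and 1 of each other list, all listed genes that passed, and the 5 genes nearest to each of 2 profiles. Cd207 was to enter the class II profile and Cd3e and Cd3g the T cell profile, but only tested genes did. Other genes were named after their values were seen, and 2 genes that the rule picks are not reported here. Positions and β chain transcripts are from GENCODE M21 (GRCm38), whose gene identifiers matched 55240 of the 55421.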

Additional observations from a re-analysis of the deposited data

How the results depend on the processing

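Trbc2 kept its direction and its call under each of 16 alternatives that change 1 choice (log2 fold change 1.81 to 2.25, adjusted p 4.03e-06 to 0.0324), so 1 of the 10 genes was called in each. With WT replicate 2 and KO replicate 1 both left out, chosen after the data were seen, 0 of the 10 were called (Trbc2 2.13, adjusted p = 0.113) and 5 genes in all. Of all genes, 198 were called, 368 with DESeq2, 82 with the library name style as a covariate, and 68 to 186 with 1 library left out (68 without KO replicate 3, 75 without KO replicate 1, 80 without WT replicate 2, 112 without KO replicate 2). Other listed genes called numbered 3 (Cd80, Krt7, Dcn), 9 with DESeq2, 0 with the name style, 0 to 3 with 1 library left out (0 without WT replicate 2, 1 without WT replicate 1, and 1 each without KO replicates 2 and 3). The 3 called without KO replicate 1 were Dcn, Hba-a1 and Hbb-bs, and the count was 0 with both libraries out. Small differences changed sign without a call. H2-Aa was -0.00813 with equal library totals. H2-Ab1 was 0.00942 with edgeR, 0.0172 with DESeq2 and 0.16 with the name style. With both libraries out Ptprc was 0.14, Cd74 -0.0314 and Epcam 0.17. With 1 library left out the log2 fold changes ran from -0.69 to 0.32 for Ptprc, -0.19 to 0.33 for Cd74, -0.18 to 0.21 for H2-Aa, -0.34 to 0.18 for H2-Ab1, 0.20 to 0.59 for H2-Eb1 and -0.20 to 0.0922 for Epcam. The cause of these shifts was not tested.

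The deviations of same-numbered libraries from their group means correlated across genes at -0.25, 0.03 and 0.28. Those of differently numbered libraries correlated at -0.40 to 0.41. With so few libraries per group these values cannot decide whether the numbers pair the mice. With a replicate block 178 genes were called, 1 of the 10 (Trbc2, 2.07, adjusted p = 0.0151) and 3 other listed genes, Cd80, Dcn and Krt5. Depth limits Cd207, Cd3e, Cd3g and Ptprc most, at 0 to 21 reads per library.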

Other observations

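The ratio of H2-Eb1 to H2-Aa, which cancels any shift common to both class II genes within a library, was 0.512, 0.511 and 0.586 in the WT mice and 0.759, 0.700 and 0.678 in the KO mice. The groups did not overlap. An exact permutation test of this ratio, two-sided, gave p = 0.1, the smallest that 3 mice against 3 allow, and 0.3 after adjustment over the 3 ratios computed. The ratio of H2-Ab1 to H2-Aa was 0.641 ± 0.0532 in WT and 0.626 ± 0.120 in KO (exact permutation p = 0.8), and that of Cd74 to H2-Aa was 0.388 ± 0.117 and 0.396 ± 0.0764 (exact permutation p = 0.9). These ratios were chosen after the values of the genes were seen.

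Cd247, the CD3ζ chain that T cells share with NK cells, had 12, 22 and 5 reads in the WT mice and 5, 20 and 17 in the KO mice. It was above each of Cd3d, Cd3e and Cd3g in all 6 libraries. Il7r, the receptor for interleukin 7, had 5, 24 and 6 reads in the WT mice and 12, 16 and 15 in the KO mice, with its highest value in WT replicate 2. Cd3d and Trac were also highest in WT replicate 2, at 6 reads each. Laptm5, a lysosomal protein of blood cells, was 44.5 in WT replicate 2 and 45.5 in KO replicate 1, and 16.98 to 20.7 in the other 4 libraries, the same 2 high libraries as for H2-Aa and H2-Ab1.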
